A study of Mus musculus with 6 samples.

Results

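The genes described here are 10 genes of apolipoproteins and macrophage lipid handling, chosen by name: the apolipoproteins Apoc2, Apoc1 and Apoe, the cholesterol transporters Abca1 and Abcg1, the lipase Lpl, the fatty acid binding proteins Fabp4 and Fabp5, and the nuclear receptors Nr1h3 and Pparg. All 10 were found among the 32879 genes to which the deposited records could be assigned. Of the 10, 9 passed the filter on low counts that left 10505 genes for the test, and Pparg did not.

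RNA from sorted peritoneal macrophages (PMs; F4/80+ and CD11b high) was sequenced from 3 control mice and 3 diseased-BWF1 mice, giving 6 libraries. Controls were non-autoimmune [NZW × BALB/c]F1 females of 33, 33 and 30 weeks. The diseased-BWF1 mice were [NZB × NZW]F1 females of 31, 31 and 34 weeks that had developed a lupus-like disease, with antibodies to double-stranded DNA and severe proteinuria. Both groups share the NZW parent and, per the study's methods, the H2 haplotype, while BALB/c was the other parent of the controls and NZB that of the diseased mice, so a difference of strain and one of disease cannot be told apart. In a bulk sample, fewer cells that make an RNA and less of that RNA per cell cannot be told apart either.

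Macrophages take up lipoproteins and dying cells, and the cholesterol and fatty acids that reach them are stored as droplets, burned or passed on to acceptors outside the cell. Cholesterol derivatives activate the liver X receptor (LXR), of which Nr1h3 encodes a form, and fatty acid derivatives activate PPARγ, the product of Pparg. LXR is known to turn on Abca1, Abcg1, Apoe, Apoc1, Apoc2 and Lpl in macrophages, and Fabp4 is a classical target of PPARγ.

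The plainest difference between the groups was in Apoc2, which was 20.5-fold lower in PMs of diseased-BWF1 mice. No other of the 9 tested genes passed the test: the values of Apoe, by far the most abundant of them per length, overlapped between the groups, and so did those of Abca1, Abcg1 and Nr1h3. Lpl had higher values in all 3 diseased mice than in any control mouse without passing the test. Among 116 further genes of lipid handling or next to Apoe on chromosome 7, Fabp3, a fatty acid binding protein best known from heart muscle, was called, and it was 6.51-fold lower in diseased-BWF1 mice.

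The promoters of the genes on which the results turn are printed from RefSeq's GRCm38.p6 sequence, each as the 250 bases before a transcription start, read 5′ to 3′ on the gene's own strand. Apoc2 (minus strand, chr7:19677942-19678191) and Fabp3 (plus strand, chr4:130308488-130308737) are the called genes. The start of Apoc4 (minus strand, chr7:19681461-19681710) is also that of Gm44805, a transcript reading through from Apoc4 into Apoc2, and it is shown because that transcript shares most of its sequence with Apoc2. Abca1 (minus strand, chr4:53159896-53160145) is shown because it holds matches to the motifs searched. Capitals mark matches to the motifs described after the sequences.

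Apoc2: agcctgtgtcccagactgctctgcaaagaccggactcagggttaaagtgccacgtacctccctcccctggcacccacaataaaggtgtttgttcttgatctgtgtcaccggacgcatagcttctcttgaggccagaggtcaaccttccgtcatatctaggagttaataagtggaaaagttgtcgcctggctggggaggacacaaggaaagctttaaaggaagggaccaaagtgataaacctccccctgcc

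Apoc4: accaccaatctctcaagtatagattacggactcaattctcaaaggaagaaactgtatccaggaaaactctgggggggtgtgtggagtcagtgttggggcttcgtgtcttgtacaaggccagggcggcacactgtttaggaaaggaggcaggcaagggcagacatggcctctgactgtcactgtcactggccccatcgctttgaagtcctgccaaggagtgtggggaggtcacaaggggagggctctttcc

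Fabp3: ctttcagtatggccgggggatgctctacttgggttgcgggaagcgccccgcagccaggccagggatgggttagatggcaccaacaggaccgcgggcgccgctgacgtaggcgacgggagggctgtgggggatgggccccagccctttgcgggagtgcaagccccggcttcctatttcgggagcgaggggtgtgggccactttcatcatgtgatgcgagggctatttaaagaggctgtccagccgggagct

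Abca1: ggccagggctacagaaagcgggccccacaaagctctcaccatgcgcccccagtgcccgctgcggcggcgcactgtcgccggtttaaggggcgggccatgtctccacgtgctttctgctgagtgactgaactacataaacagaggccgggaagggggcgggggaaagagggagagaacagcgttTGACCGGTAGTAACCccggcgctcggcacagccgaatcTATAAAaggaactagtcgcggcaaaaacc

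Motifs were searched on both strands. A DR4-like motif, the kind of repeat LXR is known to bind, was written as 2 copies of GGTNA with 5 bases between them, and a DR1-like motif, the kind PPARγ is known to bind, as 2 such copies with 2 bases between them. TATAAA, the core of the TATA box, was the third. None of the 3 was found in the Apoc2, Apoc4 or Fabp3 window. In the Abca1 window, which lies partly within the gene's span, the first capitals are a DR4-like match on the opposite strand and the second a TATAAA. Of 32851 promoters of that length, 0.621% held the DR4-like motif, 0.938% the DR1-like motif and 12.4% TATAAA. Windows were at hand for 5 of the 10 genes (Apoc2, Apoe, Abca1, Nr1h3 and Pparg). Among the other windows, TATAAA also occurred at 1 of 3 starts of Apoe and 1 of 3 of Pparg. A match is a match of letters, and its absence says only that these letters are not in the window.

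The values given below are normalized counts, which are counts on all records of a gene divided by the library's DESeq2 size factor. Total counts ranged from 3629901 to 5003360 per library, and 3 counts, taken as the floor of detection, corresponded to 0.652 to 0.888 CPM (counts relative to the sum of counts on genes, times a fixed factor). The floors cover counting error only, since PCR copies are not independent molecules. Standard errors and 95% intervals of fold changes were derived from the fold change and the F statistic of edgeR's fit. They include the spread between mice. Calls required a Benjamini-Hochberg adjusted p under 0.05 in edgeR's quasi-likelihood test together with a change of 1.5-fold or more. The exact two-sided permutation test of a single gene cannot go below 0.1 with 3 mice against 3. On the second principal component, an axis of differences between the libraries, control mouse 3 lay at -32.7 and diseased mouse 3 at -27.7. The other libraries lay at 0.39 to 28.1. By transcript length, the library of control mouse 3 stood apart from the others. Relative to the mean of the 6 libraries, its genes with transcripts over 5000 bases lay below those under 1500 bases by 0.44 on the log2 scale in the median, whereas the long genes lay above the short ones by 0.06 to 0.16 in the other 5 libraries. The sorted cells carried the markers of large PMs, and adipocyte markers, which matter for Fabp4, Lpl and Pparg, were nearly absent, with 6 of 8 at 0 in every library and a sum of 0 to 5.14 normalized counts. Marker lists of mesothelial, endothelial, T, mast and dendritic cells, neutrophils and eosinophils each summed to at most 51.9 normalized counts in any library.

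**Figure D1:**
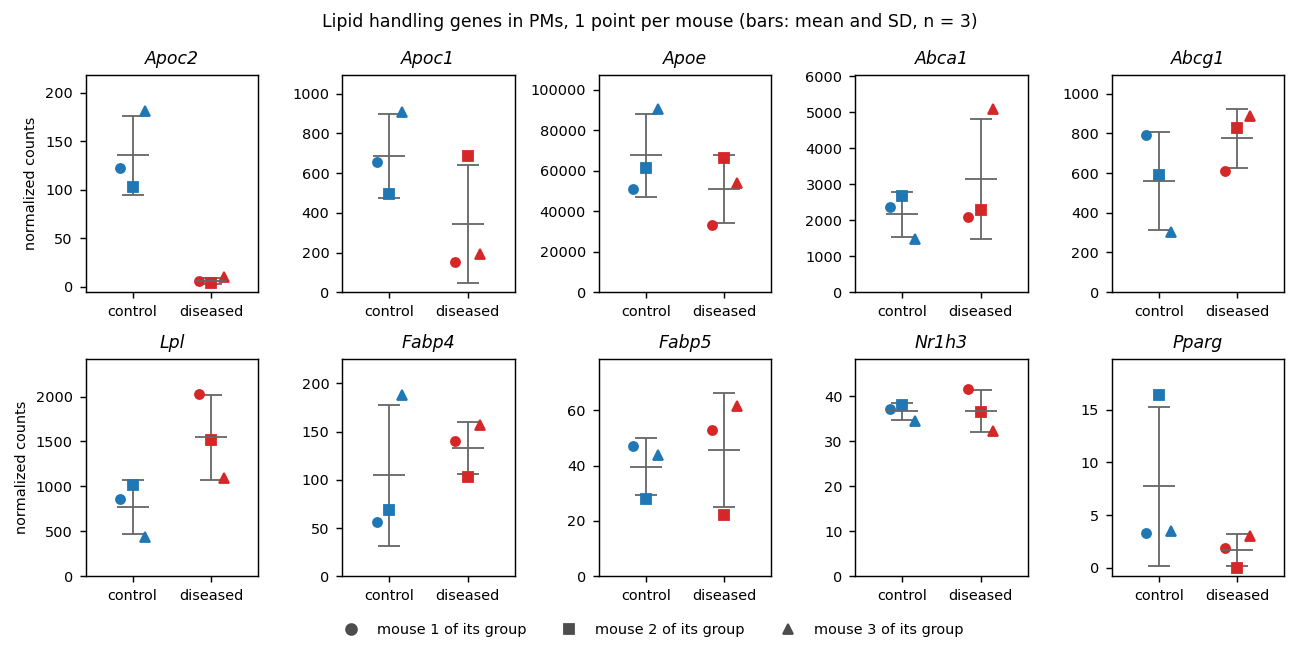
Normalized counts (vertical axes, linear, 1 panel per gene) of the 10 genes in PMs of control mice (blue) and diseased-BWF1 mice (red). Each point is a mouse, its shape giving the mouse's number within its group, and grey bars give the mean and SD (n = 3). Apoc2 is the tested gene whose diseased values all lie under the control values, and Lpl is the one whose diseased values all lie above. Pparg, whose diseased values also lie under the control values, was not tested and reached 16.5 normalized counts at most. Control mouse 3 and diseased mouse 3 both had 3 raw counts of it, so their order came from the size factors alone.

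Apoc2 encodes the small apolipoprotein that lipoprotein lipase needs as its activator. The gene lies on chromosome 7 (GRCm38.p6, 19671579 to 19677941, minus strand). Control mice 1, 2 and 3 had 122, 103 and 181 normalized counts of Apoc2, and diseased-BWF1 mice 1, 2 and 3 had 5.67, 4.05 and 10.1. The lowest control mouse thus stood about an order of magnitude above the highest diseased mouse, and the groups were far apart. In raw counts the diseased libraries held 6, 4 and 10, all above the floor of 3. The means were 136 ± 40.9 in control and 6.60 ± 3.12 in diseased-BWF1 mice (SD, n = 3). Its log2 fold change was -4.34 with a standard error (SE) of 0.37 and a 95% interval of -5.20 to -3.47 (adjusted p = 0.00483, edgeR's quasi-likelihood test), and Apoc2 ranked 11 among all genes tested by p. DESeq2 gave an adjusted p of 6.69e-17. The exact permutation test gave p = 0.1, the smallest it allows.

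Of the 9 tested genes, 1 was called lower, where 0.819% of all genes tested were, and 0 were called higher, where 0.4% of all genes were. The 9 were not a blind choice, since the genes and lists were chosen with earlier results of these data known. DESeq2 also called 1 lower and 0 higher, against 2.24% and 1.16% of all genes. At an unadjusted p under 0.05 in edgeR, 1 of the 9 was higher (Lpl) and 1 lower (Apoc2), against 5.62% and 7.57% of all genes. The median log2 fold change over the 9 was 0.20, with 6 above 0 and 3 below, beside a median of 0.01 over all 10505 genes.

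The call of Apoc2 did not rest on any single mouse. In the 6 fits that each left out 1 mouse, its log2 fold change ranged from -4.76 to -4.07 and its adjusted p from 0.0147 to 0.0392. Without control mouse 3, the highest of the controls, the log2 fold change was -4.07. Marker levels of the cells were set beside it. The sum over 7 general macrophage markers was 137530 to 187048 normalized counts in control and 117810 to 136176 in diseased-BWF1 mice, which did not overlap. Most of it was Lyz2, lysozyme, with 96875 to 152455 and 77260 to 96437. Cd68 and Adgre1 were also lower in every diseased mouse than in any control mouse. The values of Itgam, Csf1r, Mertk and Fcgr1 overlapped between the groups, with log2 fold changes of 0.13, 0.41, 0.44 and 1.14. Cd68 had a log2 fold change of -1.10 (adjusted p = 0.0718 in edgeR), and DESeq2 called it lower (adjusted p = 0.00013). The summed level of 7 markers of small PMs or monocytes was 2818 to 5418 normalized counts in control mice and 3966, 640 and 469 in diseased-BWF1 mice 1, 2 and 3. Retnla made up most of that sum in all mice but diseased mouse 3, with 1851, 4836 and 3091 in control and 3071, 424 and 52.4 in diseased-BWF1 mice. The values of H2-Aa, another marker of that list, overlapped between the groups (log2 fold change 0.01). Folr2, a folate receptor on that list, had 343, 433 and 598 in control and 152, 31.4 and 229 in diseased-BWF1 mice, below every control (log2 fold change -1.74, adjusted p = 0.254 in edgeR and 0.0407 in DESeq2). The means of Ccr2 and Irf4, also on it, went the other way, from 7.09 to 20.0 and from 45.8 to 115, without passing in either tool. The sum over 8 markers of large PMs was 46498 to 49765 in control and 39106 to 51070 in diseased-BWF1 mice. Most of that sum was Alox15 and F5. Timd4 and Icam2, named after their values were seen, were lower in every diseased mouse than in any control mouse. Their log2 fold changes were -0.53 and -0.55 (adjusted p = 0.334 and 0.198 in edgeR), and the other markers of the list overlapped. A set of 5 B cell markers summed to 9.26 to 23.2 in control and 3.03 to 11.3 in diseased-BWF1 mice. The part of these marker levels in the fold change of Apoc2 was not tested.

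Apoc2 shares sequence with a neighbour. Of the 75-base windows of its transcripts, the length of the study's reads, 77.5% also occur in Gm44805, the readthrough transcript. Gm44805 had 0 counts in all 6 libraries, so the sum of both genes gave the same fold change as Apoc2 alone. Within Apoc2, record NM_001277944.1 held 93.0% of the counts, with 148, 100 and 132 raw counts in control mice and 6, 0 and 10 in diseased-BWF1 mice. The rest fell on NM_001309795.1, which had 26 counts in control mouse 3, 4 in diseased mouse 2 and 0 in the other 4 libraries. The 4 counts of diseased mouse 2 were thus all on the minor record. Tested by itself among 20332 records, NM_001277944.1 had a log2 fold change of -4.55 but did not pass (SE 1.09, adjusted p = 0.316, edgeR's quasi-likelihood test). In that test 0 of the 20332 records were called lower.

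**Figure D2:**
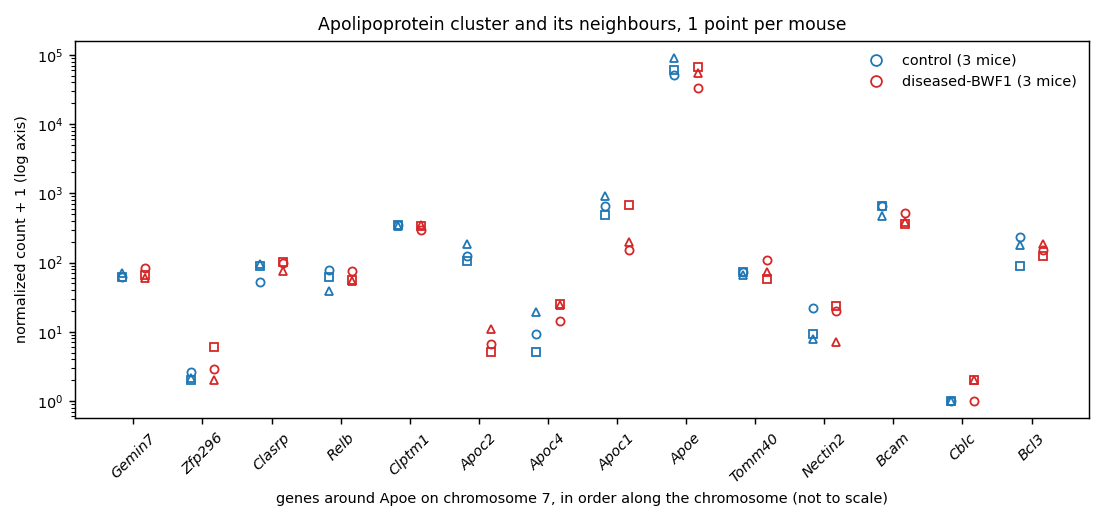
Normalized count plus 1 (vertical axis, log scale) of the apolipoprotein genes and 10 neighbouring genes on chromosome 7, placed in their order along the chromosome without regard to distance. Open symbols are mice, blue for control and red for diseased-BWF1, with the shape giving the mouse's number. The groups are apart at Apoc2 and overlap at Apoc1, Apoe and Apoc4.

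Apoc2 is one of 4 apolipoprotein genes that lie side by side, and none of the other 3 passed the test. Apoc1 (chromosome 7, 19689480 to 19692659) encodes a small apolipoprotein that inhibits lipoprotein lipase and the uptake of remnants. Control mice had 655, 493 and 911 normalized counts of Apoc1, and diseased-BWF1 mice had 150, 687 and 195. Diseased mice 1 and 3 lay far below all controls, while diseased mouse 2 lay between control mice 1 and 3. The means were 686 ± 211 and 344 ± 298 (SD, n = 3), and the log2 fold change of -1.00 did not pass the test (SE 0.56, 95% interval -2.31 to 0.31, adjusted p = 0.508, edgeR's quasi-likelihood test). Over the fits without 1 mouse it ranged from -1.99 to -0.64, with adjusted p from 0.0695 to 0.736.

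Apoe (chromosome 7, 19696244 to 19701310, minus strand) encodes the apolipoprotein that macrophages secrete and that accepts cholesterol and binds lipoprotein receptors. It took 0.895% to 2.34% of all counts on genes and ranked between 3 and 6 among all genes in every library. Control mice had 50838, 61503 and 90589 normalized counts, and diseased-BWF1 mice had 32958, 66215 and 53924. The groups overlapped, with the highest value in control mouse 3 and the lowest in diseased mouse 1. At a log2 fold change of -0.41, Apoe did not pass the test (SE 0.32, 95% interval -1.15 to 0.33, adjusted p = 0.637, edgeR's quasi-likelihood test), and without control mouse 3 it was -0.14. None of its 4 records was called when tested alone, and NM_009696.4 held 99.0% of its counts.

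Apoc4 (chromosome 7, 19678084 to 19681460, minus strand), a minor apolipoprotein whose start lies upstream of Apoc2, had few counts. Control mice had 8.27, 4.11 and 18.4 normalized counts, and diseased-BWF1 mice had 13.2, 24.3 and 23.2. The values overlapped, and the log2 fold change was 0.99, opposite in sign to that of Apoc2 (SE 0.54, adjusted p = 0.497, edgeR's quasi-likelihood test). The other 10 apolipoprotein genes of the list (Apoa1 to Apom) did not pass the filter on low counts, and Apob and Apoa1 had 0 counts in every library. Of the 8 tested neighbours on the same stretch of chromosome 7, edgeR and DESeq2 called 0. At an unadjusted p under 0.05, 1 of them was lower, Bcam, a cell adhesion molecule (log2 fold change -0.49, 95% interval -0.96 to -0.03, adjusted p = 0.349 in edgeR). Clptm1, a neighbour of Apoc2 on its other side, was at 344 ± 6.20 in control and 325 ± 25.6 normalized counts in diseased-BWF1 mice (SD, n = 3).

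Lpl (chromosome 8, 68880555 to 68906932) encodes lipoprotein lipase, the enzyme that frees fatty acids from triglycerides of lipoproteins and that the Apoc2 protein activates. Control mice had 862, 1012 and 440 normalized counts of Lpl, and diseased-BWF1 mice had 2027, 1519 and 1090. Every diseased mouse lay above every control mouse, though diseased mouse 3 and control mouse 2 were close. The means were 771 ± 297 and 1546 ± 469 (SD, n = 3), a fold change of 2.00. On the log2 scale the change was 1.00 with an SE of 0.34 and a 95% interval of 0.20 to 1.81, and it failed the correction for all genes tested (unadjusted p = 0.0215, adjusted p = 0.268, edgeR's quasi-likelihood test). DESeq2 gave an adjusted p of 0.0756. Lpl was 1 of 9 tested genes with higher values in all diseased mice than in any control mouse, against 9.59% of all genes, and Apoc2 was 1 of 9 with lower values, against 11.2% of all genes. Control mouse 3 was the lowest of the 6, and without it the log2 fold change was 0.72 (adjusted p = 0.325). Apoc2 and Lpl, the activator and its enzyme, thus lay on opposite sides of 0, of which only Apoc2 passed the test.

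Among 14 other lipases and partners of LPL, 7 passed the filter, and edgeR and DESeq2 called 0 of them, with 0 at an unadjusted p under 0.05 as well. Gpihbp1, which anchors LPL to the capillary wall, had 0 counts in every library. Lipa, the lysosomal acid lipase, had 1506 ± 162 normalized counts in control and 1181 ± 275 in diseased-BWF1 mice (SD, n = 3; log2 fold change -0.36, adjusted p = 0.485 in edgeR). Pnpla2, the lipase that opens stored triglyceride, had 389 ± 286 and 359 ± 166, and was highest in control mouse 3.

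Abca1 and Abcg1 export cholesterol, Abca1 to lipid-poor apolipoproteins and Abcg1 to mature HDL. For Abca1 (chromosome 4, 53030789 to 53159988, minus strand), control mice had 2364, 2660 and 1466 normalized counts and diseased-BWF1 mice had 2089, 2271 and 5074. Diseased mice 1 and 2 lay within the control range, and diseased mouse 3 had more than any other mouse. At a log2 fold change of 0.53, Abca1 did not pass the test (SE 0.38, 95% interval -0.36 to 1.42, adjusted p = 0.606, edgeR's quasi-likelihood test), and it was 0.01 when diseased mouse 3 was left out. With both mice numbered 3 left out, a setting chosen after the data were seen, it turned to -0.20 (adjusted p = 0.585).

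For Abcg1 (chromosome 17, 31057694 to 31117984), control mice had 793, 591 and 301 normalized counts and diseased-BWF1 mice had 609, 826 and 890. The groups overlapped, with control mouse 3 alone well below the rest. The log2 fold change was 0.46 (SE 0.33, 95% interval -0.32 to 1.24, adjusted p = 0.615, edgeR's quasi-likelihood test), and 0.16 without control mouse 3. Both transporters thus had point estimates above 0, which fell most without diseased mouse 3 for Abca1 and without control mouse 3 for Abcg1. Without diseased mouse 3 the log2 fold change of Abcg1 was 0.35. Among 13 other ABC transporters of lipids, 11 were tested and 0 were called by either tool, with 1 lower and 0 higher at an unadjusted p under 0.05. The most abundant was Abca9, at 3045 ± 152 normalized counts in control and 3132 ± 297 in diseased-BWF1 mice (SD, n = 3), and the estimate of 0.04 on the log2 scale had a 95% interval of -0.28 to 0.35. Abca3, which moves phospholipid, had 1029 ± 164 and 1025 ± 135.

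Nr1h3 (chromosome 2, 91184061 to 91202829, minus strand), which encodes LXRα, varied least over the 6 mice of the 9 tested genes. Control mice had 37.2, 38.1 and 34.5 normalized counts, and diseased-BWF1 mice had 41.5, 36.5 and 32.3. The means were 36.6 ± 1.89 and 36.8 ± 4.64 (SD, n = 3), and the 95% interval of the log2 fold change of 0.004 ran from -0.48 to 0.49 (adjusted p = 0.998, edgeR's quasi-likelihood test). Its sign changed between alternatives, so no direction is given for it, and with curated mRNA records only it had a log2 fold change of 0.66 (adjusted p = 0.920). The counts were spread over 4 records whose shares changed from mouse to mouse, and XM_006499168.3 held 53.1% of them.

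Among 15 partners and targets of LXR, 13 were tested, and edgeR and DESeq2 called 0 of them. At an unadjusted p under 0.05, 1 was lower and 0 were higher. Their log2 fold changes ran from -0.45 to 0.44 with a median of -0.07. Pltp, which moves phospholipid between lipoproteins and was the most abundant of them, had 9967 ± 822 normalized counts in control and 8207 ± 1300 in diseased-BWF1 mice (SD, n = 3; log2 fold change -0.28, 95% interval -0.68 to 0.11, adjusted p = 0.534 in edgeR). Smpdl3a, a phosphodiesterase, had 5111 ± 681 and 4640 ± 616.

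Pparg (chromosome 6, 115360879 to 115490404, plus strand), which encodes PPARγ, was at the edge of detection. Control mice had 4, 16 and 3 raw counts and diseased-BWF1 mice had 2, 0 and 3. In the 0 library, 3 counts would have been 0.797 CPM. All 3 diseased libraries were at or under the floor, so no fold change is given, and a difference was not detectable at this depth.

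Fabp4, Fabp5 and Fabp3 encode small proteins that carry fatty acids within the cell. Fabp4 (chromosome 3, 10204342 to 10208616), the fatty acid binding protein of adipocytes and activated macrophages, had 56.3, 68.9 and 188 normalized counts in control mice and 140, 103 and 156 in diseased-BWF1 mice. Control mice 1 and 2 lay below all diseased mice, whereas control mouse 3 lay above all of them. The log2 fold change was 0.36 (SE 0.45, 95% interval -0.69 to 1.40, adjusted p = 0.784, edgeR's quasi-likelihood test). Without control mouse 3 it was 1.09 and still did not pass (adjusted p = 0.124). Fabp5 (chromosome 3, 10012585 to 10016610), the epidermal form, had 47.2, 27.8 and 43.6 in control and 52.9, 22.3 and 61.5 in diseased-BWF1 mice. Its groups overlapped fully, with mouse 2 the lowest of each group (log2 fold change 0.20, 95% interval -0.72 to 1.12, adjusted p = 0.871).

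Fabp3 (chromosome 4, 130308738 to 130315463, plus strand) was the gene called among the pathway lists. Control mice had 38.1, 43.2 and 54.0 normalized counts, and diseased-BWF1 mice had 6.61, 8.10 and 6.05. The groups were far apart, and the values within each were close. The means were 45.1 ± 8.12 and 6.92 ± 1.06 (SD, n = 3). Fabp3 had a log2 fold change of -2.68 with an SE of 0.29 and a 95% interval of -3.36 to -2.00 (adjusted p = 0.012, edgeR's quasi-likelihood test), and DESeq2 gave an adjusted p of 1.52e-05. In the fits without 1 mouse it ranged from -2.80 to -2.53. It passed in 4 of them and missed the threshold without control mouse 2 (adjusted p = 0.0681) and without diseased mouse 1 (adjusted p = 0.0676). It also missed it with curated mRNA records only (log2 fold change -2.68, adjusted p = 0.0533) and without both mice numbered 3 (-2.44, adjusted p = 0.086). Of its 75-base windows, 24.3% also occur in the pseudogene Fabp3-ps1, so its counts are uncertain by an amount that was not measured.

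Of the other genes tied to PPAR, 12 of 16 were tested with Fabp3 among them. edgeR called Fabp3 lower and 0 higher, DESeq2 did the same, and 3 were lower and 0 higher at an unadjusted p under 0.05. The median log2 fold change was -0.19. Plin2, the coat protein of lipid droplets, had 2100 ± 1208 normalized counts in control and 1817 ± 174 in diseased-BWF1 mice (SD, n = 3). The wide spread of the controls came from control mouse 3, with 3492 against 1319 and 1490 in the other controls, and without it the log2 fold change turned from -0.21 to 0.37 (adjusted p = 0.313, edgeR's quasi-likelihood test). Cpt1a, which admits fatty acids to mitochondria, had 1002 ± 3.01 and 1087 ± 31.7, which did not overlap, at a log2 fold change of 0.11 (adjusted p = 0.722).

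**Figure D3:**
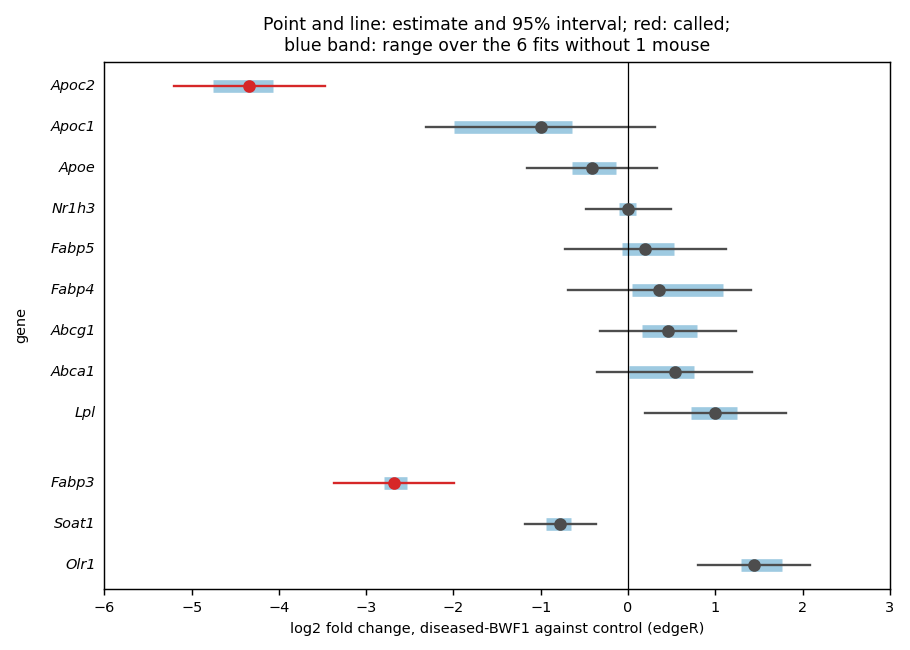
Log2 fold change of diseased-BWF1 against control mice (horizontal axis; edgeR) for the 9 tested genes and, under the gap, 3 genes of the pathway lists. Points and lines give the estimate and its 95% interval, blue bands the range over the 6 fits that each left out 1 mouse, and red marks genes that were called. Apoc2 and Fabp3 are the red genes, and of the other genes the intervals of Lpl, Soat1 and Olr1 do not include 0, though none of these passed the correction.

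In all, 79 of the 116 genes in the 8 lists of lipid handling and among the chromosome 7 neighbours were tested. edgeR called 1 lower (Fabp3) and 0 higher, against 0.819% and 0.4% of all genes tested. DESeq2 called 2 lower and 1 higher, against 2.24% and 1.16%. At an unadjusted p under 0.05 in edgeR, 9 were lower and 2 higher, against 7.57% and 5.62%. The same shares of all genes stand beside the counts given for each single list. In 9 of the 79 all diseased mice lay below all controls and in 5 they lay above, where 11.2% and 9.59% of all genes did. The median log2 fold change was -0.06. Of 8 tested genes of cholesterol esterification and droplets, edgeR called 0 and DESeq2 1 lower, with 1 lower and 0 higher at an unadjusted p under 0.05. Soat1, which esterifies cholesterol for storage, was that gene and the other gene DESeq2 called lower. Control mice had 961, 1023 and 1170 normalized counts of Soat1, and diseased-BWF1 mice had 507, 591 and 751. The groups did not overlap, and the log2 fold change of -0.77 had a 95% interval of -1.18 to -0.37, with an adjusted p of 0.102 in edgeR and 0.00639 in DESeq2. Olr1, a receptor for oxidized LDL that is named here because DESeq2 called it, after its values were seen, had 16.5, 27.8 and 14.9 in control and 53.8, 55.7 and 52.4 in diseased-BWF1 mice. The Olr1 estimate was 1.44 on the log2 scale with a 95% interval of 0.80 to 2.09, and the adjusted p was 0.0651 in edgeR and 0.0131 in DESeq2.

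Among 12 tested genes of lipoprotein and fatty acid uptake, edgeR called 0 and DESeq2 1 higher (Olr1), with 2 higher and 0 lower at an unadjusted p under 0.05. Among 7 tested genes of cholesterol export from lysosomes, both tools called 0, with 2 lower and 0 higher at an unadjusted p under 0.05. The genes of these lists named by rule did not pass in either tool. Lrp1, a large receptor for Apoe-bearing particles and many other ligands, had 16856 ± 5328 normalized counts in control and 21992 ± 5771 in diseased-BWF1 mice (SD, n = 3), and like Abca1 it was lowest in control mouse 3 and highest in diseased mouse 3. Msr1, a scavenger receptor, had 5079 ± 789 and 4965 ± 525. Npc2, a cholesterol binding protein of the lysosome, had 3450 ± 511 and 2366 ± 344. The Npc2 groups did not overlap, and the log2 fold change of -0.55 had a 95% interval of -0.96 to -0.13 and adjusted p of 0.244 in edgeR and 0.0887 in DESeq2. Osbp, a sterol exchanger, and Bscl2, the seipin of droplet formation, had log2 fold changes of 0.13 and -0.14.

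**Figure D4:**
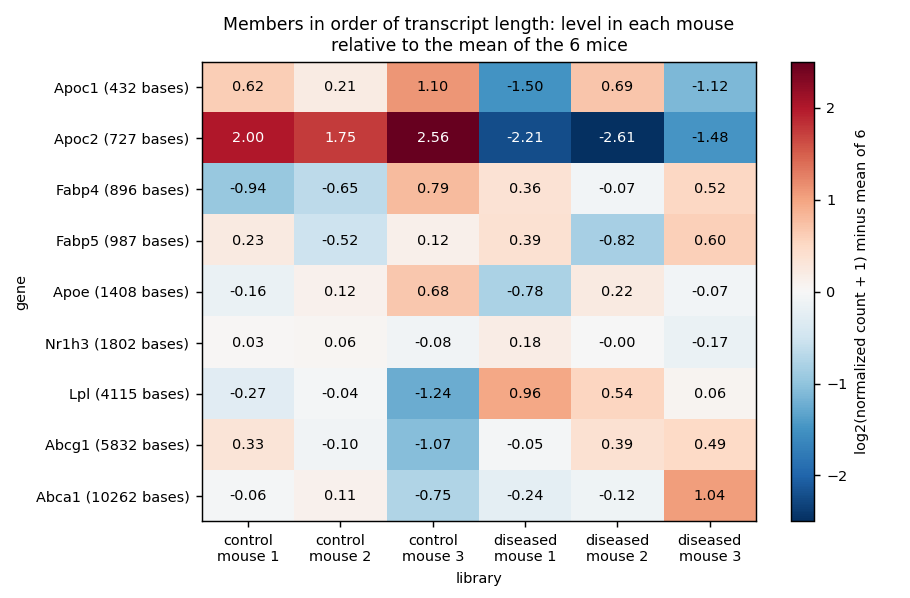
Level of the 9 tested genes in each mouse, as log2(normalized count + 1) minus its mean over the 6 mice (colour and printed value), with genes in rows from the shortest to the longest transcript and libraries in columns. In control mouse 3 the 3 longest genes are at -1.24, -1.07 and -0.75 and the 2 shortest at 1.10 and 2.56. The value of 2.56 is that of Apoc2, which is also at 2.00 and 1.75 in control mice 1 and 2. The Apoc2 row separates the groups.

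Transcript length went with the pattern of control mouse 3. It had the lowest value of the 6 mice for Lpl, Abcg1 and Abca1, whose transcripts are 4115, 5832 and 10262 bases long, and the highest for Apoc1, Apoc2, Fabp4 and Apoe, of 432, 727, 896 and 1408 bases. It was thus at an extreme for 7 of the 9 tested genes. The exceptions were Fabp5, of 987 bases, and Nr1h3, of 1802 bases, with 43.6 and 34.5 normalized counts in that mouse. Diseased mouse 3, in which long genes lay highest against short ones, had the highest Abca1, Abcg1 and Fabp5. Of these, Fabp5 is short, at 987 bases. The part of these libraries in the fold changes of the transporters and Lpl was not tested beyond leaving them out. For Apoc2, both settings gave the call: the log2 fold change was -4.07 without control mouse 3 and -4.49 without both mice numbered 3.

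Levels of different genes can be compared only per length, as normalized counts per kilobase of transcript. On this scale Apoe had 23407 to 64339 over the 6 mice and stood above all other genes of the set in every mouse. Apoc1 had 348 to 2108 and was next in all mice but diseased mice 1 and 3, where Lpl (493) and Abca1 (494) exceeded its 348 and 451. Lpl (107 to 493) and Abca1 (143 to 494) overlapped each other, as did Abcg1 (51.6 to 153) and Fabp4 (62.8 to 210). Fabp5 had 22.6 to 62.3, Nr1h3 17.9 to 23.1 and Pparg 0 to 9.31, and Pparg lay below Nr1h3 in every mouse. Apoc2 changed its place in that order. In control mice 1 and 2, at 168 and 142, it lay below both Lpl and Abca1. In control mouse 3, whose short genes lay high against long ones, it lay above both, at 250. In diseased-BWF1 mice, at 5.57 to 13.9, it lay below Nr1h3 in each mouse.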

How the data were processed

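RNA-seq libraries of sorted PMs from 3 control and 3 diseased-BWF1 mice were analysed. For each mouse the authors deposited whole-number counts on 107193 RefSeq transcript records without normalization, taken here as estimated counts that had been rounded. The submitters' processing notes name Salmon 0.8.0, DESeq2 and GRCm38.p6. Paired-end reads came from a stranded mRNA kit. By accession, 45754 records with the same version and 40712 with another were matched to genes of a RefSeq table and summed per gene, and 20727 unmatched records were left out, so that 89.1% to 93.0% of a library's counts were kept.

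Groups were compared in R 4.3.3 with edgeR 4.0.16 (filterByExpr, TMM, quasi-likelihood test, Benjamini-Hochberg adjustment over all 10505 genes tested), and DESeq2 1.42.0 gave size factors and the alternative test. Calls used the cut-offs in the study's methods, an adjusted p under 0.05 with at least a 1.5-fold change. The code was tested on simulated data. The labels number the mice of each group without stating more about their source, so p-values measure the spread between these libraries. Alternatives were DESeq2, RLE scaling, other filters, a replicate block, curated records alone, single records, each mouse left out and, chosen after seeing the data, both mice numbered 3 left out.

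The genes and lists were chosen with earlier results of these data known. From each list the text names every called gene and the 2 tested genes with the highest mean CPM, others are named as chosen after their values were seen. Transcript lengths and 75-base windows came from GENCODE vM21.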

Additional observations from a re-analysis of the deposited data

How the results depend on the processing

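The count of 1 gene called lower among the 10 fell to 0 when at least 10 counts were required in every library, since Apoc2 was then not tested. The count also fell to 0 when records were tested one by one, where 0 of all 20332 records were called lower and 13 higher. It was 1 in every fit that left out 1 mouse, and the count of genes called higher was 0 under every alternative. Among the pathway genes, the count called lower was 2 with DESeq2 and 0 with at least 10 counts in every library, with curated mRNA records only, with single records and with the replicate block, and it ranged from 0 to 1 without 1 mouse (0 without control mouse 2 and without diseased mouse 1). The count called higher was 1 with DESeq2 and 1 without the low-count filter, where Olr1 passed. Apoc2 kept its direction and its call in all 13 alternatives that tested its counts summed per gene. One of them, the sum with Gm44805, had to equal the main fit, since Gm44805 had 0 counts. The main record of Apoc2, tested by itself, kept its direction but not the call. The sign reversed for Nr1h3 without the filter (-0.013), without control mouse 3 (-0.032) and without diseased mouse 1 (-0.098, in a range of -0.098 to 0.093 over the fits without 1 mouse), for Fabp5 without diseased mouse 3 (-0.068, in a range of -0.068 to 0.53) and for Abca1 without both mice numbered 3 (-0.20), and the cause was not tested. Same-numbered mice are different animals. The correlations of their deviations from the group means were 0.12, 0.01 and 0.16, and control mouse 2 correlated best with diseased mouse 1 (0.06), so the numbers were not taken as pairs. With the replicate block, edgeR called 18 genes higher and 20 lower in place of 42 and 86, members called lower stayed at 1 and members called higher at 0, while pathway genes called lower went to 0 (Fabp3, log2 fold change -2.67, adjusted p = 0.0564) and pathway genes called higher stayed at 0. Totals of 3629901 to 5003360 counts limit what can be seen of genes such as Pparg.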
